A study of Rattus norvegicus with 20 samples.

Results

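Kidneys of rats at day 6 of aristolochic acid I (AAI) treatment were set against kidneys at day 4, 10 of the 20 arrays of the series, chosen by the day in their titles (5 arrays a day, 1 kidney each). AAI is a plant acid that damages proximal tubules and forms DNA adducts. All rats were male Wistar animals of 80 to 100 g, and both groups received AAI at 40 mg per kg into the peritoneal cavity. The labels describe treatment over 6 days, so the day of collection and the amount of AAI received may both differ between the groups and cannot be told apart. The vehicle rats received polyethylene glycol in water and were collected at day 6 only, so the change of vehicle kidneys between the days was not measured. The labels do not say whether the 5 kidneys of a group came from 5 animals, so the p-values measure spread between kidneys. In limma, p-values and intervals rest on a spread pooled over the kidneys of all 4 groups, vehicle and AAI day 2 included.

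MicroRNAs (miRNAs) are short RNAs that guide Argonaute proteins to messenger RNAs and lower their translation and stability. Most of the pairing rests on the seed, bases 2 to 8 of the mature strand. In kidney, miR-192, miR-194 and miR-30 family members are abundant in tubular epithelium, miR-21 is known to rise in injured and fibrotic tissue, and the miR-34 genes are direct transcriptional targets of p53, the transcription factor that responds to DNA damage.

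Some of the mature strands compared are printed here 5′ to 3′ from RefSeq on the GRCr8 rat assembly, with the seed in capitals. The set holds the 2 miRNAs that passed the test over all arrays, the paralogs of miR-34a-5p, the best known injury miRNA, the tubular strand with the lowest difference and the strands whose arrays did not overlap between the days. The other strands of the set did not pass that test. Of the 262 tested miRNAs, 232 had an entry by name.
miR-451-5p: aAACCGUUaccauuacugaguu
miR-34a-5p: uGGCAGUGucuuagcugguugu
miR-34b-5p: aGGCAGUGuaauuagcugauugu
miR-34c-5p: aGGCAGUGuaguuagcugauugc
miR-21-5p: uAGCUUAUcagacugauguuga
miR-192-3p: cUGCCAGUuccauaggucacag
miR-194-5p: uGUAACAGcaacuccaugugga
miR-203a-3p: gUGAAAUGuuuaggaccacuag
The 3 miR-34 strands share 1 seed, and miR-34b-5p and miR-34c-5p have the same base at 21 of 23 positions. miR-34a-5p comes from chr5:165815971-165815992 (plus strand) within the span of the lncRNA gene LOC103692514. miR-34b-5p (chr8:60306657-60306679) and miR-34c-5p (chr8:60306133-60306155) lie on the minus strand within the span of the protein-coding gene Hoatz. miR-451-5p lies at chr10:63459585-63459606 (plus strand) in no annotated gene span, next to miR-144-3p (chr10:63459446-63459465), with which it is transcribed. miR-192-3p (chr1:212994275-212994296) shares its cluster with 1 of the 2 hairpins of miR-194-5p (chr1:212994038-212994059), while the other hairpin lies on chromosome 13 within the span of Iars2.

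The arrays lay on 3 slides, and slide and day overlapped only in part. Slide 1 held all 5 day 6 arrays and day 4 arrays 3, 4 and 5, while day 4 arrays 1 and 2 lay on slide 2. The comparison was therefore made over all arrays (5 against 5) and again within slide 1 (5 against 3). On slide 1 the 3 day 4 arrays lay in slide row 2 and 4 of the 5 day 6 arrays in slide row 1, so row and day were nearly tied there. Levels are log2 values of the signal of a miRNA divided by the 75th percentile of its array, so that 1 unit is a doubling.

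A difference between the days in the number of detected miRNAs or in signal was not detectable. At day 6, 289.2 ± 23.1 (SD, n = 5) of 719 miRNAs were detected, against 287 ± 23.5 at day 4 (exact permutation test, two-sided, p = 0.913). The 75th percentile signal was 480 ± 96.3 at day 6 and 472 ± 73.8 at day 4 (exact permutation p = 0.889), and the design allows no p below 0.00794. One array of each day stood apart. On day 4 array 2, 328 miRNAs were detected, while the other day 4 arrays had 269 to 284, and day 6 array 2 had the lowest 75th percentile signal (309). Within day 4, 61 of 262 miRNAs differed between the 2 arrays of slide 2 and the 3 of slide 1 (23.3%; limma, adjusted p under 0.05), 24 higher and 37 lower on slide 2. Array 2 is 1 of the 2 on slide 2. Its mean correlation with the other day 4 arrays was 0.922, beside 0.975 for array 1 of the same slide. For arrays 3 to 5 of slide 1 it was 0.970 to 0.973. The parts of the slide and of array 2 in the 61 were not tested. The median SD of a miRNA among day 4 arrays was 0.24, and 0.16 without array 2, beside 0.21 among day 6 arrays.

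Kidney markers were present on both days. The tubular miR-30a-5p stood at 3.53 ± 0.19 at day 4 and 3.51 ± 0.13 at day 6 (SD, n = 5 each), and miR-192-5p was detected on all 10 arrays. Of 11 listed miRNAs of liver, muscle, brain and pancreas, 8 were not tested because they were rarely detected, among them the hepatocyte miR-122-5p (2 of 5 day 4 and 1 of 5 day 6 arrays) and the muscle miR-1-3p (0 of 5 on both days). The 3 tested members did not pass (limma, 0 also at an unadjusted p under 0.05), with a median difference of -0.19, and their summed level was 0.189 to 0.325 at day 4 and 0.206 to 0.300 at day 6 in units of the 75th percentile of the array.

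Between day 4 and day 6, 2 of 262 tested miRNAs passed the threshold, an adjusted p under 0.05 in limma (0.763%). miR-451-5p, a miRNA of red blood cells, fell 3.77-fold (95% interval 2.30 to 6.16), and the p53 target miR-34a-5p rose 3.55-fold (2.06 to 6.12). Within slide 1, 1 of 262 passed (0.382%), again miR-451-5p, which was lower. At an unadjusted p under 0.05 there were 8 higher and 16 lower miRNAs over all arrays, and 10 higher and 53 lower within slide 1. The median difference of all tested miRNAs was -0.04 over all arrays and -0.10 within slide 1, and in each comparison 176 of 262 differences were negative. For 224 of 262 miRNAs the 95% interval of the difference lay within 2-fold in either direction, and for 38 it reached beyond 2-fold. The count of called miRNAs differed when single arrays were left out. It was 6 without day 4 array 2, 5 without day 4 array 5 and 3 without day 6 array 2. It was 8 without day 6 array 4, and 1 without day 4 array 1 or 3 or day 6 array 1 or 5. Apart from miR-451-5p and miR-34a-5p, no miRNA named below was called in more than 3 of 42 alternatives over all arrays.

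**Figure D1:**
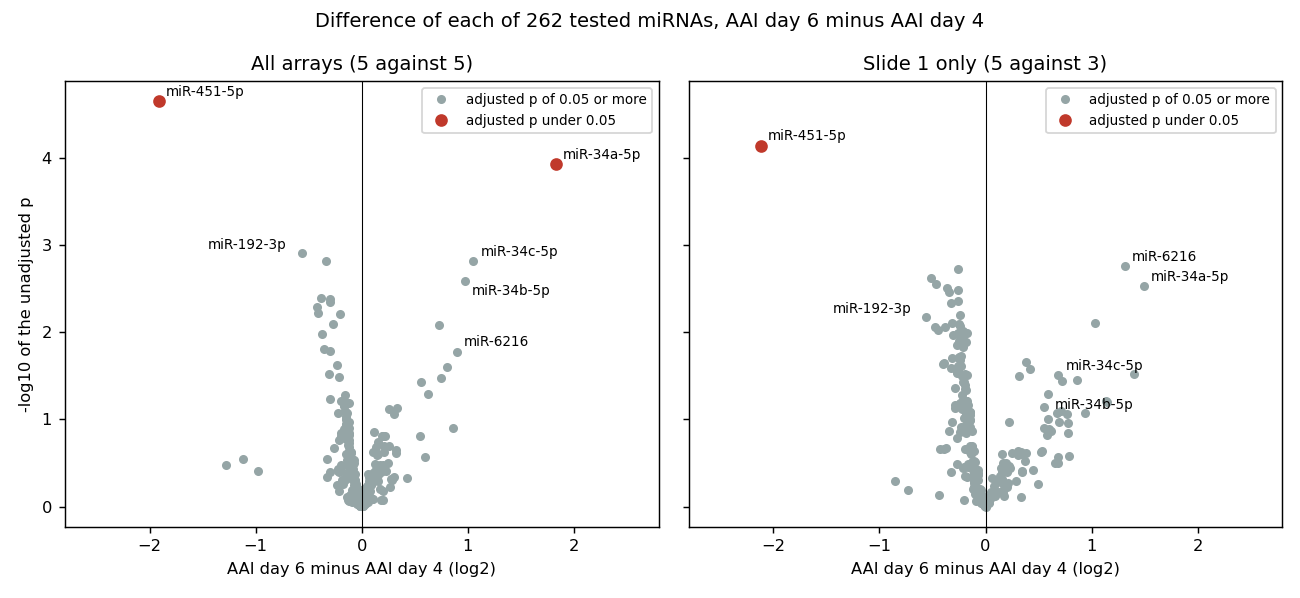
Each point is 1 of 262 tested miRNAs, with the log2 difference of AAI day 6 minus AAI day 4 on the horizontal axis and -log10 of the unadjusted p on the vertical axis, over all arrays (left) and within slide 1 (right). Red points passed an adjusted p under 0.05: miR-451-5p (-1.91) and miR-34a-5p (1.83) on the left, and miR-451-5p (-2.12) on the right.

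miR-451-5p is cut by Argonaute rather than Dicer and is the most abundant miRNA of maturing red cells. Its level on day 4 arrays 1 to 5 was -1.25, -1.73, -0.95, -0.64 and -1.34, and on day 6 arrays 1 to 5 it was -3.11, -2.36, -2.96, -2.89 and -4.17. All 5 day 6 kidneys lay below all 5 day 4 kidneys, and kidney 5 of day 6 was the lowest of the 10. The difference was -1.91 ± 0.34 (SE; limma, adjusted p = 0.00584) over all arrays and -2.12 ± 0.40 (adjusted p = 0.0189) within slide 1. Both of its 2 probes were lower at day 6, with log2 ratios of the mean signals of -1.82 and -1.86. Its mean was -0.37 ± 0.65 in vehicle and -0.42 ± 0.48 at AAI day 2 (SD, n = 5 each). With normexp background correction the difference was -0.85 ± 0.22 and missed the threshold (adjusted p = 0.0920 over all arrays, 0.114 within slide 1). That setting adds an offset of 50 to the signal, which shrinks log2 differences of dim miRNAs. The call of miR-451-5p within slide 1 was also lost without day 4 array 3 (0.122) or 4 (0.205) or day 6 array 1 (0.0505), and with the fit limited to the arrays compared (0.0588), the 90th percentile scaling (0.103) or the software's own total signal (0.0617).

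Of the other red-cell miRNAs listed, none could be tested beside it. miR-144-3p, its cluster partner, was detected on 2 of 5 day 4 arrays and 0 of 5 day 6 arrays, and miR-144-5p on 0 of 5 on both days. Fewer red cells in the kidney and less miR-451-5p per cell cannot be told apart in whole tissue.

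miR-34a-5p had a wide spread on both days. Day 4 arrays 1 to 5 gave levels of -2.52, -1.34, -1.82, -1.12 and -0.33, and day 6 arrays 1 to 5 gave 0.82, -0.17, 0.43, -0.53 and 1.46. The days overlapped, since day 4 kidney 5 lay above day 6 kidney 4. The difference was 1.83 ± 0.37 (limma, adjusted p = 0.0155) over all arrays. Within slide 1 it was 1.49 ± 0.43 and missed the threshold (adjusted p = 0.100), as it did with slide as a fixed block (0.100) or a random block (0.0628). Its 2 probes gave log2 ratios of 1.83 and 1.81. Its mean was -2.52 ± 0.17 in vehicle and -1.72 ± 0.50 at AAI day 2. The call over all arrays was lost without day 4 array 1 (adjusted p = 0.0560) or 3 (0.0634), without day 6 array 1 (0.0639) or 5 (0.0569), without scaling (0.0683) and in the fit limited to the 10 arrays (0.328). That last fit leaves out the vehicle and day 2 kidneys, which spread less for miR-34a-5p than those of day 4 or day 6. The sign was positive in 42 of 42 alternatives over all arrays, with differences of 1.24 to 2.10. Many of these, such as other filters or left-out vehicle or day 2 arrays, left the difference at 1.83. They could not move the sign, so the count is a description only.

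**Figure D2:**
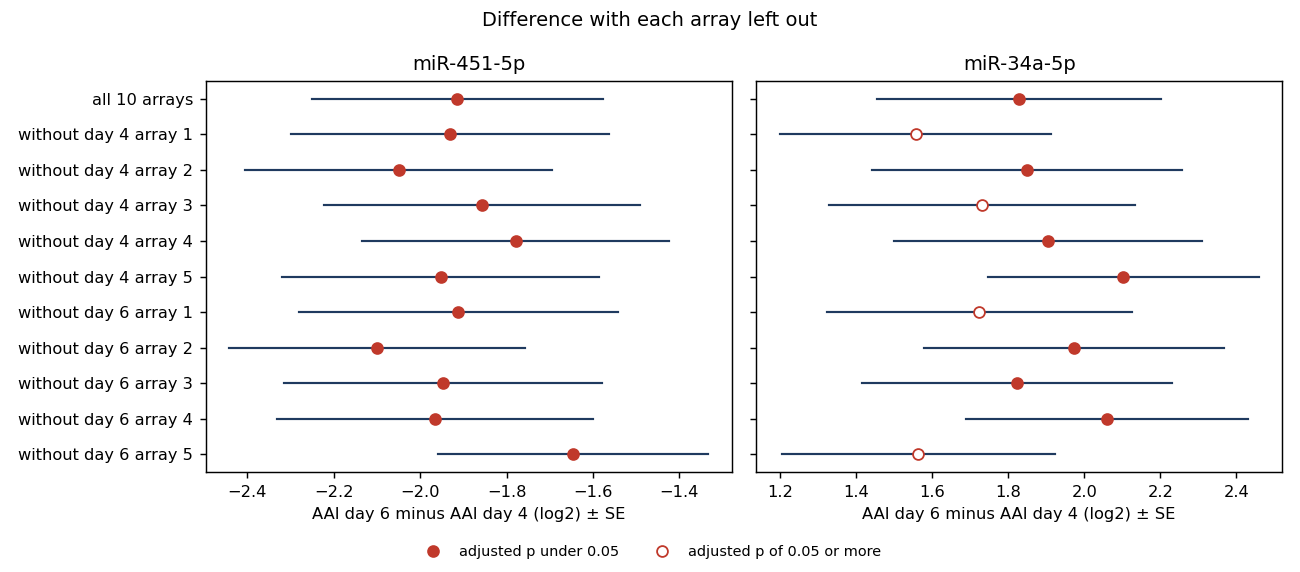
The log2 difference of AAI day 6 minus AAI day 4 with its SE (bars) for miR-451-5p and miR-34a-5p, over all 10 arrays (top) and with each array of the 2 days left out. Filled points passed an adjusted p under 0.05: miR-451-5p did so in each row, and miR-34a-5p did not without day 4 arrays 1 or 3 or day 6 arrays 1 or 5.

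The same seed is carried by the p53 targets miR-34b-5p and miR-34c-5p, and neither passed. For miR-34c-5p the day 4 levels were -4.74, -4.98, -4.25, -3.97 and -3.62 and the day 6 levels were -2.41, -3.68, -3.49, -4.08 and -2.65. For miR-34b-5p the day 4 levels were -4.53, -5.39, -4.12, -4.12 and -3.77 and the day 6 levels -2.82, -3.64, -3.71, -4.20 and -2.70. In both, day 6 kidneys 1 and 5 were well above the other 8, while day 6 kidney 4 lay among the day 4 kidneys. The differences were 1.05 ± 0.28 (limma, adjusted p = 0.0805) and 0.97 ± 0.28 (0.111) over all arrays, and 0.69 ± 0.29 (0.152) and 0.59 ± 0.28 (0.211) within slide 1. Day 4 arrays 1 and 2 were the lowest of their day for both, and both passed without day 6 array 4 (0.0141 and 0.0213) or without day 4 array 5 (0.0278 and 0.0480). With the software's own total signal both signs turned (-0.10 and -0.17). The opposite strands miR-34b-3p and miR-34c-3p were detected on at most 2 arrays of either day and were not tested.

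Of 7 tested members of the p53-induced list, 1 rose (miR-34a-5p) and 6 did not pass, beside 2 of 262 passing over all tested miRNAs. The values went both ways. The 3 miR-34 members were positive, and miR-194-5p (-0.42 ± 0.13, adjusted p = 0.134), miR-192-5p (-0.35 ± 0.13, 0.244), miR-107-3p (-0.15 ± 0.08, 0.639) and miR-145-5p (-0.10 ± 0.08, 0.826) were negative. The list median was -0.10, beside -0.04 over all tested miRNAs. miR-215, the paralog of miR-192-5p, was detected on 0 of 5 arrays on both days.

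**Figure D3:**
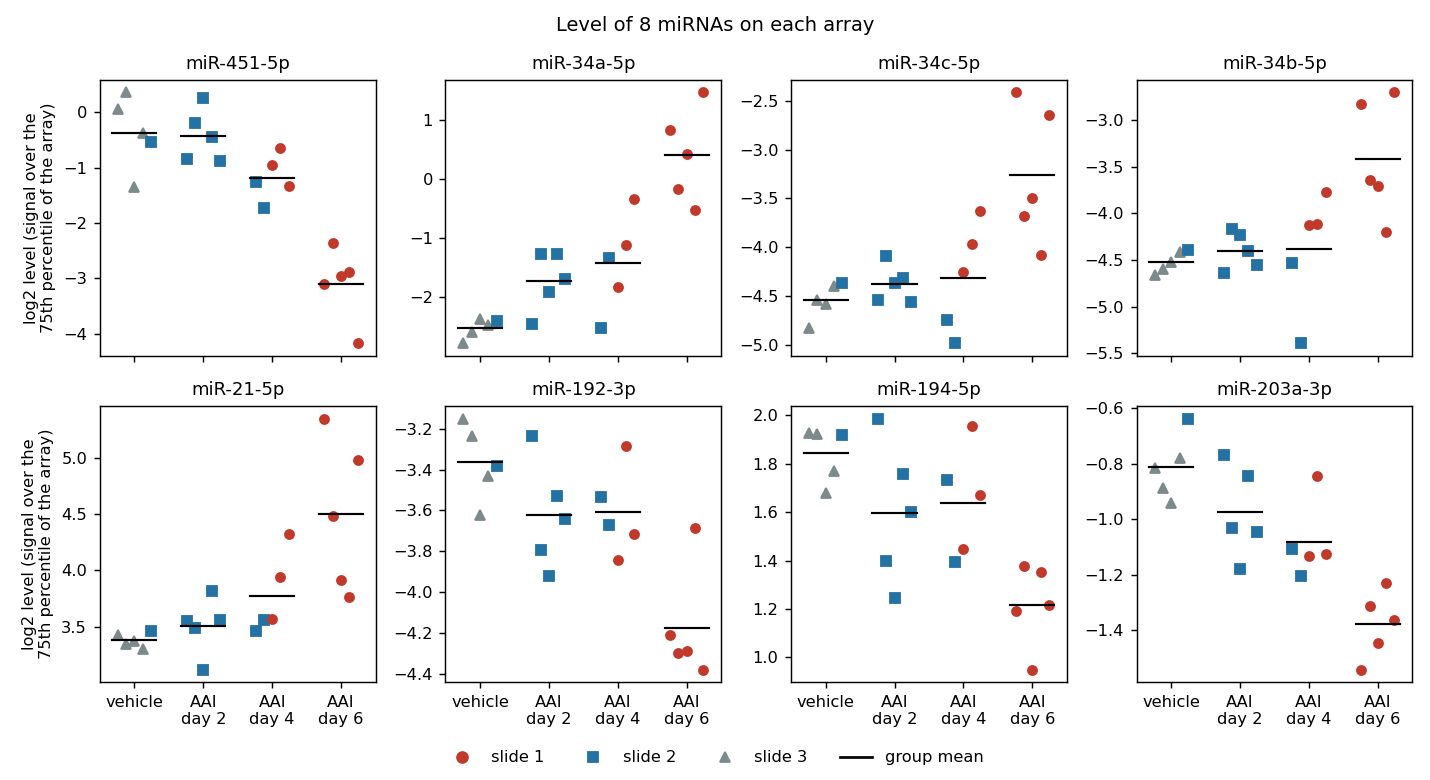
Log2 levels (signal over the 75th percentile of the array) of 8 miRNAs on each of the 20 arrays, by group from left to right and by replicate number within a group, with symbols for the slide and bars for group means. miR-451-5p, miR-194-5p and miR-203a-3p are the 3 miRNAs in which the 5 day 6 points lie below the 5 day 4 points, and in the miR-34 panels day 6 kidneys 1 and 5 are the highest of all 20.

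The miRNAs reported higher in injured kidney gave mostly positive values. Of these 1 of 12 passed, beside 2 of 262 over all tested miRNAs. It was miR-34a-5p, which is also in the p53-induced list. Among them, miR-21-5p is known to rise in injured tubules. Its levels at day 4 were 3.46, 3.56, 3.57, 3.94 and 4.32 and at day 6 were 5.34, 4.48, 3.91, 3.76 and 4.98. Day 6 kidneys 1, 2 and 5 lay above all day 4 kidneys, and kidneys 3 and 4 did not. The difference was 0.73 ± 0.24 (limma, adjusted p = 0.154), and 0.55 ± 0.29 (0.238) within slide 1. It passed without day 6 array 4 (0.0364). The opposite strand miR-21-3p, at -3.11 ± 0.43 on day 4 and -2.37 ± 0.59 on day 6, differed by 0.75 ± 0.32 (0.379), and by -0.77 ± 1.19 with the software's total signal.

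Some other members had values of similar size without passing. miR-146b-5p, a brake on inflammatory signalling, differed by 0.80 ± 0.33 (limma, adjusted p = 0.326), with day 6 kidney 1 at -1.36 and the other day 6 kidneys at -3.79 to -2.73. miR-132-3p, which CREB induces, differed by 0.62 ± 0.30 (0.526), and miR-18a-5p of the growth-associated miR-17-92 cluster by 0.56 ± 0.25 (0.406; 0.14 within slide 1). miR-132-3p was detected on 4 of 5 day 4 arrays. Over the alternatives its difference ran from 0.11 to 1.95 over all arrays and from -0.49 to 0.55 within slide 1 (37 of 38 with the same sign). The value of miR-18a-5p was -1.08 with the software's total signal and 1.41 in a fit of the authors' deposited values. The fibroblast-associated miRNAs miR-199a-5p (0.03 ± 0.12), miR-199a-3p (-0.05 ± 0.11) and miR-214-3p (-0.08 ± 0.08) were near 0. miR-146a-5p, which NF-kB induces as a feedback inhibitor, had the opposite sign (-0.30 ± 0.09, 0.129). Over the 12 members, 9 values were positive, beside 86 of 262 over all tested miRNAs. Their median was 0.35 over all arrays and 0.15 within slide 1, beside -0.04 and -0.10 over all tested miRNAs.

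The same pair of day 6 kidneys was highest for several of these. In 7 of the 8 miRNAs that were higher at an unadjusted p under 0.05 (miR-34a-5p, miR-34b-5p, miR-34c-5p, miR-21-5p, miR-21-3p, miR-146b-5p and miR-18a-5p), kidneys 1 and 5 were the highest of day 6, and in the same 7 kidney 5 was the highest of day 4. Over all 262 tested miRNAs, kidneys 1 and 5 were the highest of day 6 in 44 (16.8%), and kidney 5 the highest of day 4 in 36 (13.7%). The exception was miR-6216, whose day 6 levels were 1.91, 0.41, 1.64, 1.29 and 0.44, with kidneys 1 and 3 highest. These 8 were chosen as higher at day 6 on the same arrays. They include the miR-34 strands, which share 1 seed, and both arms of miR-21. The counts are therefore a description and not 8 independent observations.

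miR-6216 was in the slide 1 comparison the miRNA with the smallest p in the higher direction. It is an annotated rat miRNA on chromosome 3 whose function is not described in the labels. Its day 4 levels were 0.28, 1.45, -0.36, -0.27 and 0.09, so that day 4 array 2 lay above 3 of the 5 day 6 arrays. The difference was 0.90 ± 0.34 (limma, adjusted p = 0.244) over all arrays and 1.32 ± 0.35 (0.100) within slide 1, where all 5 day 6 arrays lay above the 3 of day 4. It passed without day 4 array 2 (0.0391).

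The other miRNAs named in the higher direction within slide 1 were miR-3557-3p, miR-3102 and miR-667-3p. They differed by 1.03 ± 0.34 (limma, adjusted p = 0.111), 0.38 ± 0.15 (0.151) and 0.42 ± 0.17 (0.152) there, and by only 0.29, 0.08 and 0.04 over all arrays. For each, the 2 day 4 arrays of slide 2 were higher than the 3 of slide 1 by 1.86, 0.75 and 0.95 (adjusted p = 0.0362, 0.0371 and 0.0362), and the part of slide in the difference was not tested. Over the alternatives miR-3102 ran from -1.94 to 0.52 within slide 1 (38 of 39 with the same sign) and from -1.27 to 0.38 over all arrays (38 of 42). miR-3473 and miR-3584-5p were highest in day 6 kidneys 3 (4.62 and 0.64) and 4 (3.88 and 0.08) and in day 4 kidney 2 (3.28 and -0.44), and their differences were 0.86 ± 0.54 (0.680) and 0.60 ± 0.53 (0.873).

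**Figure D4:**
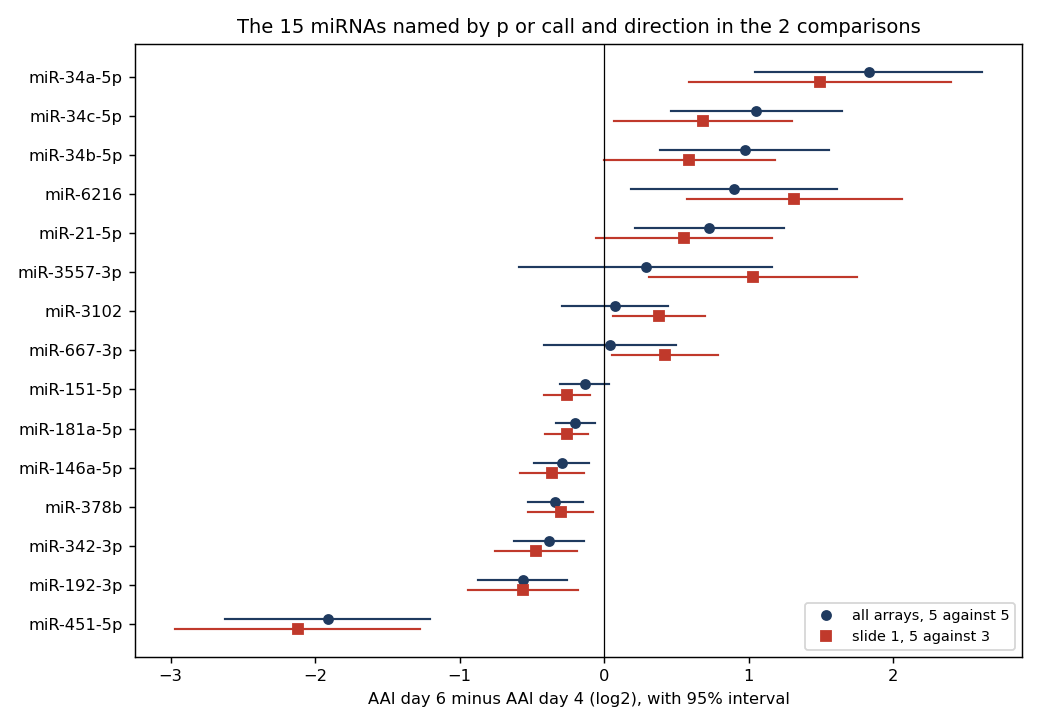
Log2 difference of AAI day 6 minus AAI day 4 with 95% intervals for the 15 miRNAs named in either comparison, over all arrays (circles) and within slide 1 (squares). miR-451-5p (-1.91 and -2.12) lies far below the others, the next lowest is miR-192-3p (-0.56), and miR-3557-3p, miR-3102 and miR-667-3p lie away from 0 within slide 1 only.

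Tubular miRNAs gave small values, 13 of 15 of them negative, beside 176 of 262 over all tested miRNAs. In limma 0 of 15 passed (4 were lower at an unadjusted p under 0.05). miR-192-3p was the lowest. Its levels were -3.53, -3.67, -3.84, -3.29 and -3.71 at day 4 and -4.21, -4.30, -4.29, -3.69 and -4.38 at day 6, where kidney 4 lay among the day 4 kidneys. It differed by -0.56 ± 0.15 (limma, adjusted p = 0.0805) over all arrays and by the same -0.56 ± 0.18 (0.111) within slide 1. It passed in 3 of 42 alternatives over all arrays. Among these was the fit without day 6 array 4 (0.00756), its highest array of that day. The difference of miR-192-3p was -0.12 with normexp and -0.06 with the software's total signal.

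miR-194-5p, of the same cluster, had no overlap between days. Its day 4 levels were 1.73, 1.39, 1.45, 1.96 and 1.67 and its day 6 levels were 1.19, 1.38, 0.95, 1.35 and 1.22. The lowest day 4 kidney and the highest day 6 kidney, number 2 of each day, were nearly equal, and the difference was -0.42 ± 0.13 (limma, adjusted p = 0.134). miR-192-5p (-0.35 ± 0.13, 0.244) and the epithelial miR-204-5p (-0.23 ± 0.10, 0.326) were the next lowest. The other 11 members, the miR-30 strands and the Hox-cluster miRNAs miR-10a-5p, miR-10b-5p, miR-196a-5p and miR-196b-5p, lay between -0.15 and 0.05.

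The list median was -0.11 over all arrays and -0.23 within slide 1, where 15 of 15 values were negative, beside 176 of 262 over all tested miRNAs. For 15 of 15 members the 95% interval over all arrays lay within 2-fold. The sign of several members depended on scaling: with the labelling spike-ins 5 of 15 were positive and with the software's total signal 9 of 15. Of all tested miRNAs, 162 of 262 and 177 of 262 were positive with these. miR-192-3p, miR-194-5p, miR-192-5p, miR-204-5p, miR-30e-5p and miR-30e-3p had negative differences in 42 of 42 alternatives. Many of these settings, such as those without a vehicle or day 2 array, could not move a difference. The 4 tested strands of the chromosome 1 cluster were all negative (median -0.39), beside 176 of 262 over all tested miRNAs. They are both arms of 2 hairpins, and miR-194-5p also comes from the chromosome 13 hairpin, so they are not independent observations.

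Groups that did not overlap numbered 3 of 262 over all arrays (1.15%), and in each the day 6 arrays were lower: miR-451-5p, miR-194-5p and miR-203a-3p. miR-203a-3p, an epithelial miRNA that restrains p63, had day 4 levels of -1.11, -1.21, -1.13, -0.84 and -1.12 and day 6 levels of -1.54, -1.31, -1.44, -1.23 and -1.36. It differed by -0.30 ± 0.09 (limma, adjusted p = 0.129), and miR-203b-3p, from the opposite strand of the same locus on chromosome 6, by -0.41 ± 0.13 (0.134; 0.18 for miR-203b-3p with the software's total signal). Without day 4 array 2 the groups did not overlap for 22 miRNAs, without day 6 array 4 for 12 and without day 4 array 5 for 6. miR-451-5p was among them in each of these, and with no scaling, with median, 90th percentile, spike-in or quantile scaling and in the deposited table it was the only one. Within slide 1 the groups did not overlap for 47 miRNAs (17.9%), 16 above and 31 below.

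Outside the lists, miR-378b was the next lowest miRNA by p over all arrays, and miR-151-5p and miR-181a-5p were among the lowest by p within slide 1. miR-378b belongs to the miR-378 family, which is tied to mitochondrial metabolism, and its levels were 1.82, 1.82, 1.81, 1.85 and 1.52 at day 4 and 1.13, 1.64, 1.48, 1.50 and 1.39 at day 6. Only day 4 kidney 5 lay among the day 6 kidneys. The difference was -0.34 ± 0.09 (limma, adjusted p = 0.0805), and it passed without day 4 array 5 (0.0278) or day 6 array 2 (0.0432). miR-151-5p, an intronic miRNA of the gene for focal adhesion kinase, differed by -0.26 ± 0.07 (0.100) within slide 1 and by -0.14 ± 0.08 (0.674) over all arrays. miR-185-5p (-0.30 ± 0.11, 0.244) and miR-99a-3p (-0.30 ± 0.15, 0.560; -0.52 within slide 1) were also lower by value without passing. miR-99a-3p ranged from -3.40 in a fit of the authors' deposited values to -0.03 with normexp over all arrays, and miR-99a-3p within slide 1 passed in 4 alternatives, the deposited values (-5.08, adjusted p = 0.0409), the 75th percentile over all miRNAs (0.0166), the replicate block (0.0424) and without AAI day 2 array 1 (0.0462).

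Leukocyte miRNAs also gave mostly negative values, 5 of 6, beside 176 of 262 over all tested miRNAs. Of 6 tested, 0 passed in limma, and 2 were lower at an unadjusted p under 0.05. miR-342-3p, an intronic miRNA of Evl expressed in lymphoid cells, had levels of -0.76, -0.97, -0.78, -0.52 and -0.64 at day 4 and -1.17, -1.07, -1.23, -0.81 and -1.31 at day 6. It differed by -0.38 ± 0.12 (adjusted p = 0.129), and by -0.47 ± 0.13 (0.100) within slide 1, where the days did not overlap. miR-146a-5p had levels of 0.29, -0.01, 0.18, 0.39 and 0.32 at day 4 and 0.04, 0.09, -0.18, -0.01 and -0.26 at day 6. It and miR-342-3p passed when a single array was left out, day 4 array 2 for the first (0.0300) and day 6 array 4 for the second (0.0364).

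The lineage markers did not share one direction. The myeloid miR-223-3p differed by 0.14 ± 0.19 and ranged from -1.67 to -0.30 at day 6, the general leukocyte miR-142-3p by -0.19 ± 0.27 and the lymphocyte miR-150-5p by -0.06 ± 0.14. The list median was -0.18, beside -0.04 over all tested miRNAs, and the summed level of the 6 ranged from 2.78 to 3.72 at day 4 and from 2.69 to 3.53 at day 6, in units of the 75th percentile of the array.

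Endothelial and stromal miRNAs did not pass either. miR-126a-3p, the main endothelial miRNA, differed by -0.12 ± 0.07 (limma, adjusted p = 0.680) and miR-126a-5p by -0.09 ± 0.10. In the stromal and smooth-muscle list, miR-143-3p (-0.00) and miR-145-5p (-0.10 ± 0.08) were the smooth-muscle pair, and the median of the 5 was -0.05. Their sum was 6.68 to 9.60 at day 4 and 7.27 to 9.03 at day 6. For all 5 stromal and both endothelial members the 95% interval lay within 2-fold.

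In the remaining families, which act in growth, matrix turnover and epithelial identity, 0 members passed in limma, and only miR-18a-5p had an unadjusted p under 0.05. The 8 let-7 members, which repress growth-promoting transcripts, lay between -0.09 and -0.00 with a median of -0.02, and between -0.27 and -0.15 within slide 1. With spike-in scaling 7 of the 8 were positive, beside 162 of 262 over all tested miRNAs. The 3 miR-29 members, which repress collagen transcripts, had a median of 0.15, and the 11 of the miR-17-92 cluster and its paralogs 0.12. The latter was -0.07 within slide 1, where 10 of 11 were negative, beside 176 of 262 over all tested miRNAs. Of the miR-200 family, which keeps the epithelial state, the 5 members lay between -0.06 and 0.23. The 9 members of the cell-cycle miR-15, miR-16, miR-322 and miR-503 list had a median of -0.01, with miR-503-5p highest (0.33 ± 0.17, adjusted p = 0.585). The 7 of the miR-23/27/24 clusters, which act in vessel and muscle growth, had a median of 0.04. Over all arrays, with at least 1 other scaling or source of values, the medians of the let-7, miR-200, miR-15/16, miR-23/27/24, Dlk1-Dio3, stromal, endothelial and tubular lists changed sign, and those of the other lists did not. The median of all tested miRNAs changed sign as well, to 0.07 with the software's total signal, and within slide 1 to 0.04 with the 90th percentile. Within slide 1 the medians of the p53-induced list (0.01 with the 90th percentile), the injured kidney list (-0.06 with the 75th percentile over all miRNAs), the CREB and hypoxia list (-0.01) and the miR-29 family (-0.12, both with the latter scaling) also turned, as did those of the miR-17-92, miR-15/16, miR-23/27/24, Dlk1-Dio3, stromal and other-tissue lists with at least 1 scaling or source of values.

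Of 31 listed miRNAs of the imprinted Dlk1-Dio3 region, a list that leaves out some of its members, among them miR-667-3p, 6 were tested and 0 passed in limma (0 also at an unadjusted p under 0.05), with a median of -0.04. Of the 3 tested members of the CREB and hypoxia list 0 passed, with a median of 0.31. The CREB-induced miR-212-3p (0.31 ± 0.17, adjusted p = 0.599) and the hypoxia miRNA miR-210-3p (0.05 ± 0.17, 0.992) also did not pass. For miR-210-3p the 95% interval ran from -0.31 to 0.41.

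**Figure D5:**
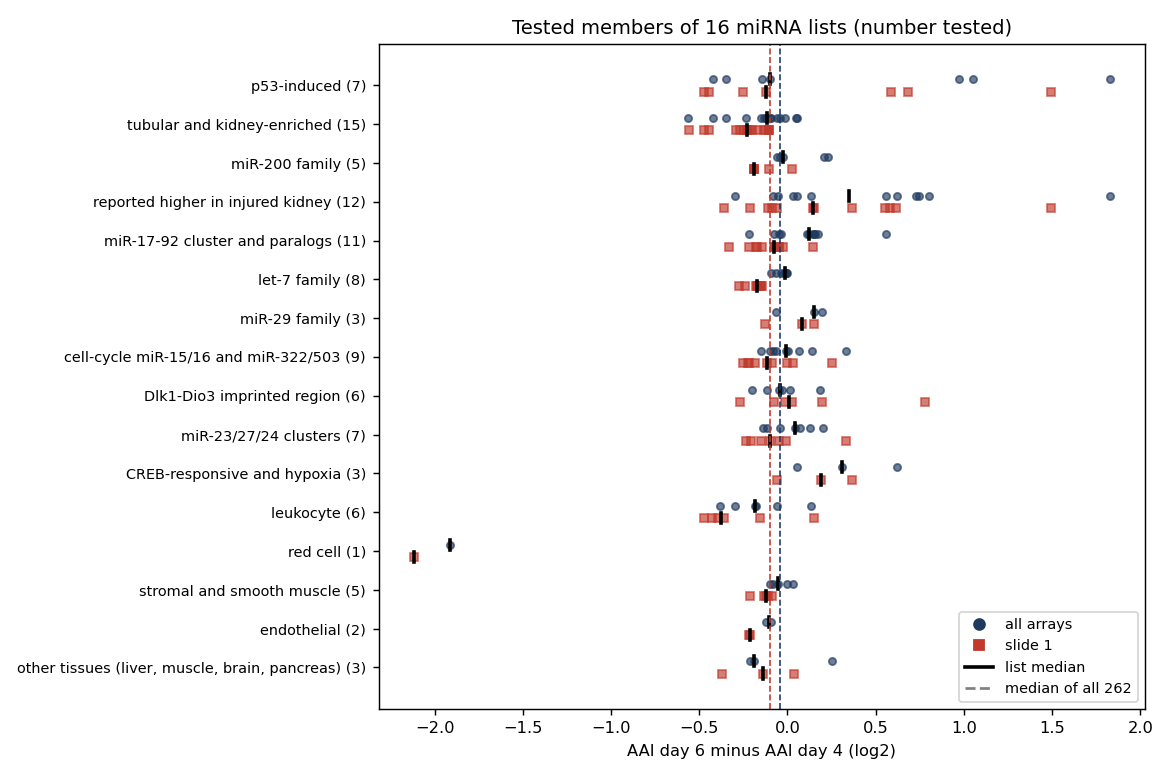
Log2 differences of AAI day 6 minus AAI day 4 for the tested members of 16 lists, over all arrays (circles) and within slide 1 (squares), with list medians (black bars) and the medians of all 262 tested miRNAs (dashed lines). The red-cell list has 1 tested member, at -1.91 and -2.12, and in the tubular and let-7 lists the slide 1 values lie to the left of the values over all arrays.

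Among the 232 tested miRNAs with a sequence entry, 9 seeds were shared by at least 3. Family members with no entry by name, such as miR-30b-5p and miR-30d-5p, are not in these groups. Of the 9, the miR-34 seed had the highest median difference (1.05, 3 of 3 positive, beside 86 of 262 over all tested). The next was the miR-29 seed (0.15). The lowest was that of the 4 miR-181 members (-0.16, 4 of 4 negative, beside 176 of 262 over all tested), miRNAs known from lymphocyte development. Among them miR-181a-5p differed by -0.20 ± 0.06 (limma, adjusted p = 0.134) and miR-181b-5p by -0.27 ± 0.09 (0.154), and both passed without day 4 array 2 (0.0300 each). In 40 hairpins both arms were tested, and the differences of the arms lay over 0.5 log2 units apart in 0 of them over all arrays and in 2 within slide 1, those of miR-345 (-0.15 and 0.72) and miR-99b (-0.21 and 0.34).

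Against the vehicle arrays, which both comparisons share, 69 of 262 miRNAs (26.3%) passed in limma at day 6 and 10 (3.82%) at day 4. No slide held both vehicle and day 6 arrays. Of the 10 highest miRNAs called at day 6 against vehicle, 1 passed directly between the days, and of the 10 lowest, 1.

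Those 20 were chosen by their level on the same day 6 arrays that enter the direct difference, so its sign is favoured by the choice and the values are a description. miR-23a-5p (0.20, 95% interval -1.86 to 2.26), miR-341 (-0.05, -0.52 to 0.42) and miR-465-5p (0.01 ± 0.34) were among the 10 called higher than vehicle on day 6 and had the direct differences given. miR-341 stood at -1.99 ± 0.09 at day 4 and -2.04 ± 0.35 at day 6. The direct differences of miR-34a-5p (1.83), miR-34c-5p (1.05), miR-6216 (0.90), miR-3473 (0.86) and miR-21-3p (0.75) were the 5 highest. The 10 lower miRNAs had direct differences of -1.91 to -0.30 (median -0.36), and of these only miR-451-5p passed the direct test. The 10 higher ones had a median of 0.67, with miR-551b-5p at 0.33 ± 0.27.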

How the data were processed

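Total RNA of 20 rat kidneys was hybridised to 1-colour (Cy3) Agilent miRNA arrays, 1 per kidney. The scanner software was Agilent Feature Extraction 10.7.1.1, per the file headers, and its processed signal is a background-corrected intensity on a linear scale with outlier and detection flags. The headers name the rn4 build, whose coordinates were not used. The authors deposited a table of log2 values for the same arrays, which served only as an alternative.

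Spots with an outlier flag were left out, the mean intensity per probe was summed over the probes of a miRNA, and each sum was divided by the 75th percentile of its array over the 231 miRNAs detected on all 20 arrays. Values below the lowest positive scaled signal were set to it (7 of 5240), and log2 was taken. Of 719 miRNAs, 262 were tested, those flagged as detected on each of the 5 arrays of a group. The test was limma 3.58.1 (R 4.3.3), with 4 groups in 1 fit over all arrays, or group by slide for slide 1, and Benjamini-Hochberg adjustment over 262. The number of arrays limits the precision. Array measures were tested by exact permutation. The scripts were tested on simulated data.

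Named miRNAs were the called ones (up to 10 a direction), otherwise the 5 smallest p-values a direction, members of the lists, and the 10 largest called differences a direction between day 6 and vehicle. The lists were p53-induced, tubular, miR-200, injured kidney, miR-17-92, let-7, miR-29, miR-15/16 with miR-322 and miR-503, Dlk1-Dio3, miR-23/27/24, CREB and hypoxia, leukocyte, red cell, stromal, endothelial and other tissues. Members and lists were chosen with earlier results of these data known. Same-numbered kidneys of the days did not deviate together (r from -0.61 to 0.36), so the numbers were not taken as pairs. Alternatives covered background correction, scaling, probe summary, filters, floor, slide or replicate number as a block, the variance model, the samples in the fit and each array left out.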

Additional observations from a re-analysis of the deposited data

Results flagged for a closer look

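Single arrays stood apart from the other 4 of their day in 13 of 216 groups examined, and chance alone gives about 1 in 20. Each ratio is the gap to the nearest array over the range of the group. Of the 13, 7 were for day 4 array 2: miR-30e-5p (0.843; 1.63 against 2.25 on the nearest array), miR-30b-5p (0.821; 1.99 against 2.40), miR-370-3p (0.797; -0.32 against -3.15), miR-126a-5p (0.757; -2.02 against -1.64), miR-181a-5p (0.748; 0.51 against 0.72), miR-106b-5p (0.715; -0.67 against -0.17) and miR-143-3p (0.710; 1.89 against 2.27), all log2 levels. The number of detected miRNAs on that array was the eighth (0.746; 328 against 284).

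The others were spread over several arrays. Day 4 array 5 was low for miR-378b (0.890; 1.52 against 1.81), and day 4 array 4 was high for miR-203a-3p (0.725; -0.84 against -1.11). Day 6 array 4 was high for miR-192-3p (0.757; -3.69 against -4.21), and day 6 array 1 for miR-363-3p (0.736; -4.43 against -4.61). The 75th percentile signal of day 6 array 2 was low (0.838; 309 against 499).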

How the results depend on the processing

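Over all arrays, 2 miRNAs were called, and 1 with normexp background correction, no scaling, slide as a fixed or random block, slide as a fixed block without day 4 array 2, the fit on only the arrays compared, or only slide 1. Leaving out single arrays gave 1 to 8. Within slide 1, where 1 was called, normexp, 90th percentile scaling, the software's total signal and the fit on only the arrays compared gave 0 each, the authors' deposited values gave 2, and the 75th percentile over all miRNAs 95 (3 higher, 92 lower), a scaling that put the median of all tested miRNAs at -0.30. Leaving out single arrays gave 0 (without day 4 array 3 or 4 or day 6 array 1) to 3 (without day 6 array 2). With the replicate block the counts were 3 over all arrays and 24 within slide 1 (2 higher, 22 lower). Groups did not overlap for 3 miRNAs, for 1 with no scaling, median, 90th percentile, spike-in or quantile scaling or the deposited table, for 47 within only slide 1, and for 3 to 22 without single arrays. Without single arrays the difference in detected miRNAs per array was -2.5 to 12.45, and that in 75th percentile signal per array -18.4 to 49.97. The causes were not tested. The count of intervals within 2-fold stayed within 1.5 times its value in each setting run. miR-451-5p was called in 41 of 42 alternatives over all arrays and 32 of 39 within slide 1, and miR-34a-5p in 33 of 42 and 2 of 39. The fixed-block setting without day 4 array 2 and the higher floor were chosen after seeing the data.

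No vehicle kidneys were collected at day 4, and on slide 1 all day 6 arrays but 1 lay in another slide row than those of day 4. Dim miRNAs such as miR-34b-5p and miR-34c-5p depend on the background step: with normexp and its offset of 50 their differences were 0.21 and 0.25.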
